A study of Mus musculus with 6 samples.

Results

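Messenger RNA was sequenced from 6 pools of mouse M II oocytes to ask how quercetin, a plant flavonol, altered the transcripts of oocytes from aged females, and 9 genes are described here. They are the genes of the aryl hydrocarbon receptor (AHR) system, Ahr, Arnt, Ahrr, Cyp1a1, Cyp1b1 and Tiparp, together with 3 genes for conjugation and export of flavonoids, Sult1a1, Abcg2 and Abcc1. The 9 genes were taken by symbol from the 53465 Ensembl genes of the deposited count table, and each had a row there. Oocytes came from Kunming (KM) females of 9 to 10 months, primed with 10 IU of pregnant mare serum gonadotropin (PMSG). They were freed of cumulus cells and matured in vitro for 16 h either without quercetin (control) or with 10 μM quercetin. Each group had 3 pools and each pool held 15 oocytes from 3 mice, so that variation between single mice was averaged within a pool. Quercetin was supplied in DMSO, and the sources used here do not state whether the control medium held DMSO. The labels name no other difference between the groups.

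AHR is a cytosolic receptor held by HSP90 and its co-chaperones until a planar ligand, a class that includes dioxin, tryptophan products and flavonoids, is bound. It then enters the nucleus, pairs with ARNT and binds DNA elements with a GCGTG core, where it raises transcription of CYP1 enzymes and of its own repressors, AHRR and TIPARP. Flavonoids taken up by cells are sulfated, glucuronidated or methylated, and the products and the parent compounds are pumped out by ATP-binding cassette (ABC) transporters. A fully grown oocyte largely stops transcription before maturation, so that M II transcripts are mostly those stored earlier and kept, adenylated or degraded since.

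Total counts ran from 7880467 to 9938743 per pool. By these totals alone, a gene at 3 counts lay at 0.302 to 0.381 CPM, the count scaled to a common library total. Other CPM levels were also scaled by TMM, except where library size is named. All 10 oocyte markers were among the tested genes and together took 16029 to 19897 CPM per pool. Of 12 cumulus and granulosa markers, 4 (Amh, Amhr2, Foxl2, Ptx3) had 0 counts in every pool, 6 were under the filter on low counts, and Has2 and Cyp19a1 were tested. Their summed level was 61.2 to 76.8 CPM in control and 77.4 to 84.2 CPM in quercetin pools, most of it Cyp19a1. Without Cyp19a1 it was 2.99 to 8.19 CPM and 4.57 to 8.87 CPM. Of 8 blood, stroma and endothelium markers, 4 (Hbb-bs, Hba-a1, Col1a1, Cdh5) had 0 counts. The list summed to 32.6 to 38.0 CPM in control and 34.1 to 41.2 CPM in quercetin pools. Most of this was Pecam1, at 29.8 to 37.4 CPM per pool. The part of these cells in the values below was not tested. On the first principal component (32.4% of the variance) quercetin 1 and 2 lay at one end, at -37.9 and -30.9, and quercetin 3 at 30.9 lay with control 2 at 31.3. Arnt, Abcc1, Hsp90aa1 and Ugp2 are given with and without quercetin 3. This pool and these genes were not set in advance. The values of the fit without quercetin 3 are thus a description only. In pools, fewer contributing cells and less RNA per cell cannot be told apart.

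Of the 9 genes, 5 had enough counts to be tested (Ahr, Arnt, Cyp1b1, Tiparp, Abcc1), 2 had counts in 1 pool only (Ahrr, Abcg2) and 2 had none (Cyp1a1, Sult1a1). In edgeR's quasi-likelihood test, adjusted by Benjamini-Hochberg across the tested genes, 0 of the 5 passed an adjusted p of 0.05, against 0% of the 11842 genes tested. At an unadjusted p of 0.05, 0 of the 5 passed, against 4.03% of all tested genes (477 genes), and DESeq2 also called 0 of the 5. The estimate was higher with quercetin for 2 of the 5 and lower for 3, against 5490 and 6352 of all tested genes. Their median log2 fold change was -0.02, beside -0.03 over all tested genes. The pools did not overlap for 1 of the 5, Tiparp (higher), against 10.6% of all tested genes, 5.43% with quercetin higher and 5.15% with it lower. No change of these genes was detected, and the intervals below show how large a change each comparison could have missed.

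**Figure D1:**
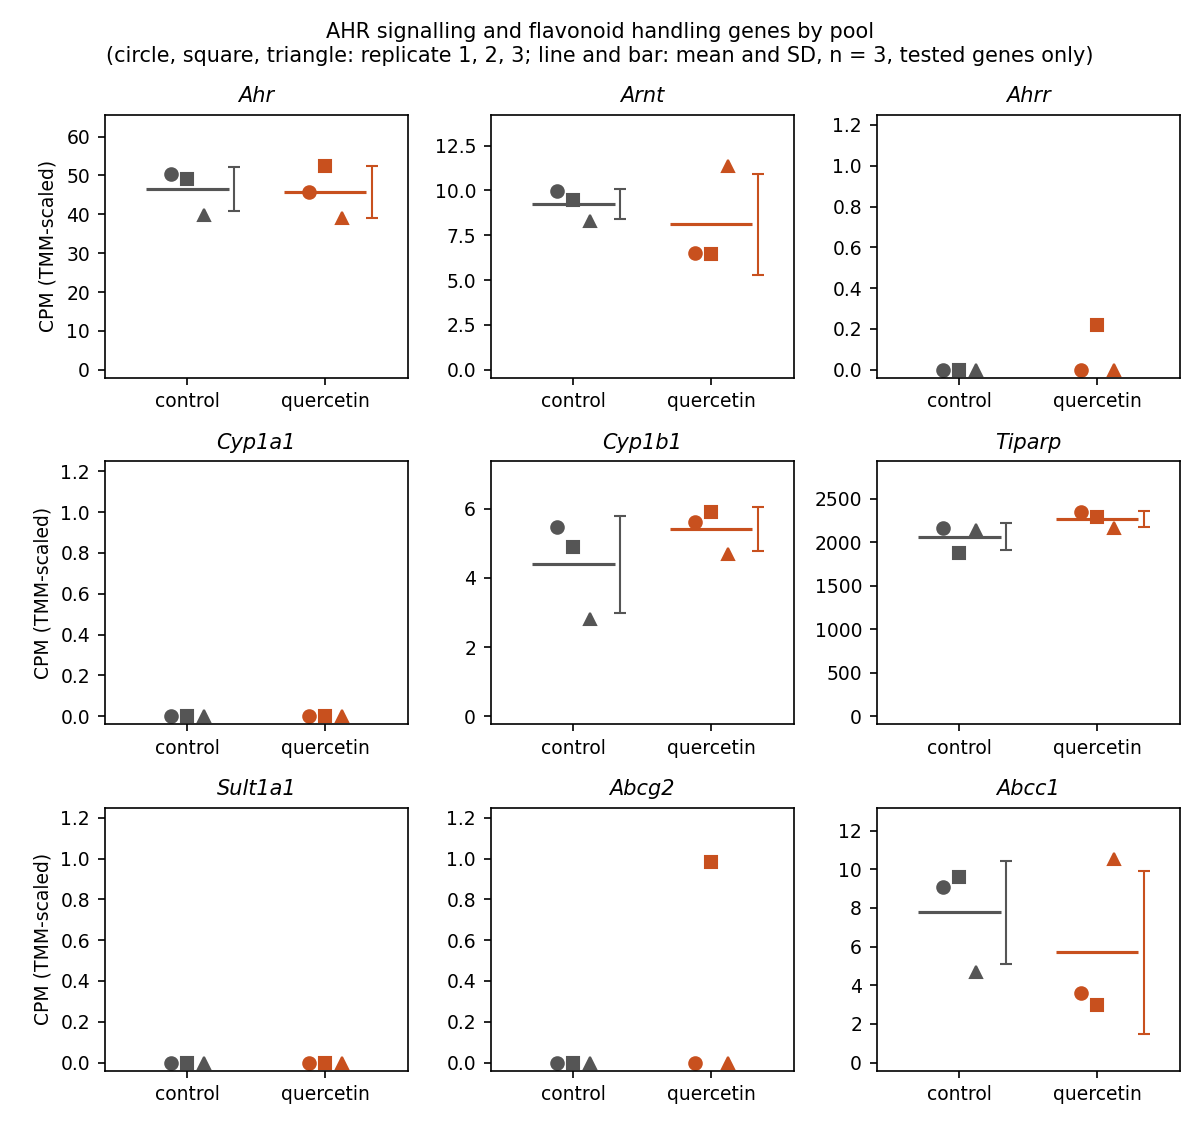
Level of each of the 9 genes in CPM (linear axis from 0, scaled by TMM) in the 3 control and 3 quercetin pools. Each point is 1 pool (circle, square and triangle for replicates 1, 2 and 3), with the mean and SD over 3 pools drawn for the 5 tested genes. Tiparp lay near 2000 CPM in every pool, Cyp1a1 and Sult1a1 lay at 0 in every pool, and Arnt and Abcc1 were low in quercetin 1 and 2 but not in quercetin 3.

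Ahr (ENSMUSG00000019256, chr12:35497974-35535038, minus strand, GRCm38), the receptor itself, was counted 451, 411 and 356 times in control 1 to 3, and 367, 480 and 334 times in quercetin 1 to 3. The pools of both groups were interleaved over the same range. Its level was 46.5 ± 5.75 CPM in control and 45.8 ± 6.66 CPM with quercetin (SD, n = 3), which placed it at rank 2875 among the 11842 tested genes. The log2 fold change was -0.02 with a standard error (SE) of 0.19 (adjusted p = 0.999, edgeR), and its 95% interval of -0.45 to 0.40 spanned a fold of 0.733 to 1.32. A two-sided exact permutation test gave p = 0.9, where 0.1 is the smallest value that 3 pools against 3 can give. Another gene on the opposite strand, Gm48236, covered 2.06% of its exon length.

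Arnt (ENSMUSG00000015522, chr3:95434388-95497240, plus strand), the DNA-binding partner of AHR and of the HIF proteins, was counted 89, 79 and 74 times without quercetin, against 52, 59 and 97 times with it. Quercetin 1 and 2 lay under every control pool, and quercetin 3 lay above every control pool. The means were 9.24 ± 0.850 CPM and 8.11 ± 2.83 CPM (SD, n = 3), so the spread of the quercetin pools was the wider. The log2 fold change was -0.19 (SE 0.29, 95% interval -0.84 to 0.46, adjusted p = 0.988, edgeR). Without quercetin 3 it was -0.51 with an adjusted p of 0.420.

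AHRR and TIPARP are induced by AHR and in turn limit it, so their messages belong to the feedback arm of the pathway. Ahrr (ENSMUSG00000021575, chr13:74211118-74292331, minus strand), the repressor that competes with AHR for ARNT, had 0 counts in 5 pools and 2 counts in quercetin 2. The exact 95% Poisson interval of 2 counts is 0.242 to 7.22, which covers counting error only. Both groups were thus under the floor of 3 counts per pool, and no fold is given.

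Tiparp (ENSMUSG00000034640, chr3:65528410-65555518, plus strand), a mono-ADP-ribosyltransferase that modifies AHR, was of another order of abundance. Its counts were 19302, 15723 and 19108 without quercetin, against 18785, 20927 and 18431 with it, and it ranked at 62 of 11842 tested genes by CPM and at 120 by RPKM (CPM per kilobase of exon). Scaled by TMM, its levels in control 1 to 3 were 2159, 1883 and 2143 CPM, and those in quercetin 1 to 3 were 2347, 2289 and 2162 CPM. All quercetin pools lay above all control pools on this scale, but the nearest pair, control 1 and quercetin 3, differed by less than the SD of either group. By plain library size the groups overlapped, at 2226, 1995 and 2146 CPM against 2219, 2106 and 2273 CPM. The log2 fold change was 0.14 (SE 0.13, adjusted p = 0.988, edgeR), and the exact permutation p was 0.1, the smallest possible. Its 95% interval of -0.16 to 0.43 spanned a fold of 0.895 to 1.35, the narrowest of the 5 genes. The opposite-strand gene 4931440P22Rik covered 5.12% of the exon length of Tiparp.

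CYP1 enzymes oxidise planar aromatic compounds and flavonoids, and their genes are the classical readout of AHR activity. Cyp1a1 (ENSMUSG00000032315, chr9:57687928-57703824, plus strand) had 0 counts in all 6 pools, which allows a level of up to 0.302 to 0.381 CPM per pool by library size. Only 5.52% of its 31-base words occurred in transcripts of other genes, and its nearest relative Cyp1a2 also had 0 counts in all 6 pools. Cyp1b1 (ENSMUSG00000024087, chr17:79701537-79715061, minus strand) was detected in every pool, with 49, 41 and 25 counts without quercetin, against 45, 54 and 40 with it. Control 3 was the lowest pool and the other 5 lay close together. The means were 4.40 ± 1.41 CPM in control and 5.41 ± 0.635 CPM with quercetin (SD, n = 3), and the log2 fold change was 0.30 (SE 0.32, adjusted p = 0.988, edgeR). The 95% interval of -0.42 to 1.02 spanned a fold of 0.747 to 2.02, so that a doubling would be within it.

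The windows of up to 250 bases before the RefSeq start (GRCm38.p6) of the AHR target genes are shown because these 4 genes differ so widely in level while all carry the core that AHR and ARNT bind. The core was searched as GCGTG, and as CACGC for the other strand, and is in capitals below. The windows lie at chr3:65528197-65528409 (Tiparp, plus strand, ended at the first annotated exon), chr17:79715062-79715311 (Cyp1b1, minus strand), chr9:57697363-57697612 (Cyp1a1, plus strand) and chr13:74292332-74292581 (Ahrr, minus strand), each written 5′ to 3′ on the strand of its gene.
Tiparp: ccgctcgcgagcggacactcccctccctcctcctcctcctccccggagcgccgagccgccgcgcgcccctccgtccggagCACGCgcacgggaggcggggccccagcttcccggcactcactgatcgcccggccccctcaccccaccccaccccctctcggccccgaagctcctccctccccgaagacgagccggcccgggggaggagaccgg
Cyp1b1: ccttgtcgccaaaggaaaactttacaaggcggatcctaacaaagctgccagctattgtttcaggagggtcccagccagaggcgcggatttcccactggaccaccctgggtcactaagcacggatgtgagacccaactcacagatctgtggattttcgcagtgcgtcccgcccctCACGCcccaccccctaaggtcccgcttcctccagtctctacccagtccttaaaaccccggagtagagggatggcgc
Cyp1a1: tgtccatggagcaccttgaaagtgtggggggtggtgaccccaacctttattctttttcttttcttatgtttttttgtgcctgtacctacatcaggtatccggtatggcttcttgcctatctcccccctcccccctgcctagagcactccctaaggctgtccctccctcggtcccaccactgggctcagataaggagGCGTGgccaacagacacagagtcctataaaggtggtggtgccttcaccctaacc
Ahrr: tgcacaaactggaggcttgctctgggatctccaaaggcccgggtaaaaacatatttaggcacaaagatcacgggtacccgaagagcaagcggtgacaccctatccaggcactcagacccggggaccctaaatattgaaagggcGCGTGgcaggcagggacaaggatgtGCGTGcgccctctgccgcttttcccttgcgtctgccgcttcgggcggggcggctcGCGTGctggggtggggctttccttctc

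Counted in bases before the start, the core began 170 before that of Tiparp, 76 before that of Cyp1b1 and 54 before that of Cyp1a1. The Ahrr window held 3 cores, which began 107, 82 and 27 bases before the start. Arnt had 1 core at 29 bases, and the windows of Sult1a1 and Abcg2 (3 windows) had none. Ahr and Abcc1 had no entry in the RefSeq table. The core is common, since 28.2% of 32851 RefSeq windows of the same length held it and 2.77% held 3 or more. The gene with 3 cores had 2 counts in all, while genes with 1 core ranged from 0 counts (Cyp1a1) to at least 15723 in each pool (Tiparp). Bases outside these windows were not searched, and a link between cores and level was not tested. The GC content of the windows was 75.2% for Tiparp, 60.4% for Ahrr, 58.0% for Cyp1b1 and 53.6% for Cyp1a1, beside a median of 52.4% over all windows. A match is a description of these letters and not a measured site.

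SULT1A1, a phenol sulfotransferase, conjugates flavonoids with sulfate. Sult1a1 (ENSMUSG00000030711, chr7:126672865-126676432, minus strand) had 0 counts in all 6 pools. Of its 31-base words 11.4% were shared with Gm6939 and Sgf29, and Sgf29 covered 4.05% of its exon length, so most of its sequence was its own.

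ABCG2 and ABCC1 are efflux pumps of the plasma membrane with flavonoids and their conjugates among their substrates. Abcg2 (ENSMUSG00000029802, chr6:58584523-58695676, plus strand) had 0 counts in 5 pools and 9 counts in quercetin 2 (exact 95% Poisson interval 4.12 to 17.1), or 0.984 CPM. The same pool was the only one with counts of Ahrr. With 1 pool of 3 above 0 the gene was under the filter, and it is given no test. Abcc1 (ENSMUSG00000023088, chr16:14361558-14475737, plus strand) had 81, 80 and 42 counts without quercetin, against 29, 27 and 90 with it. Quercetin 1 and 2 were the lowest pools and quercetin 3 the highest of all 6, while control 3 fell between. The means were 7.78 ± 2.67 CPM and 5.71 ± 4.21 CPM (SD, n = 3), and the log2 fold change was -0.45 (SE 0.50, 95% interval -1.57 to 0.68, adjusted p = 0.988, edgeR). Without quercetin 3 it was -1.24, with an adjusted p of 0.288 (edgeR). The value for Abcc1 thus rests on which pools are kept, and in neither case passed the adjustment.

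The plot of all 5 tested genes by pool shows this together. Relative to the control mean on the log2 CPM scale, Arnt lay at -0.49, -0.50 and 0.30 in quercetin 1, 2 and 3, and Abcc1 at -0.99, -1.27 and 0.49. These same pools stood apart on the first principal component of all genes, where quercetin 3 did not lie with quercetin 1 and 2. Control 3 was low for Cyp1b1 (-0.56).

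**Figure D2:**
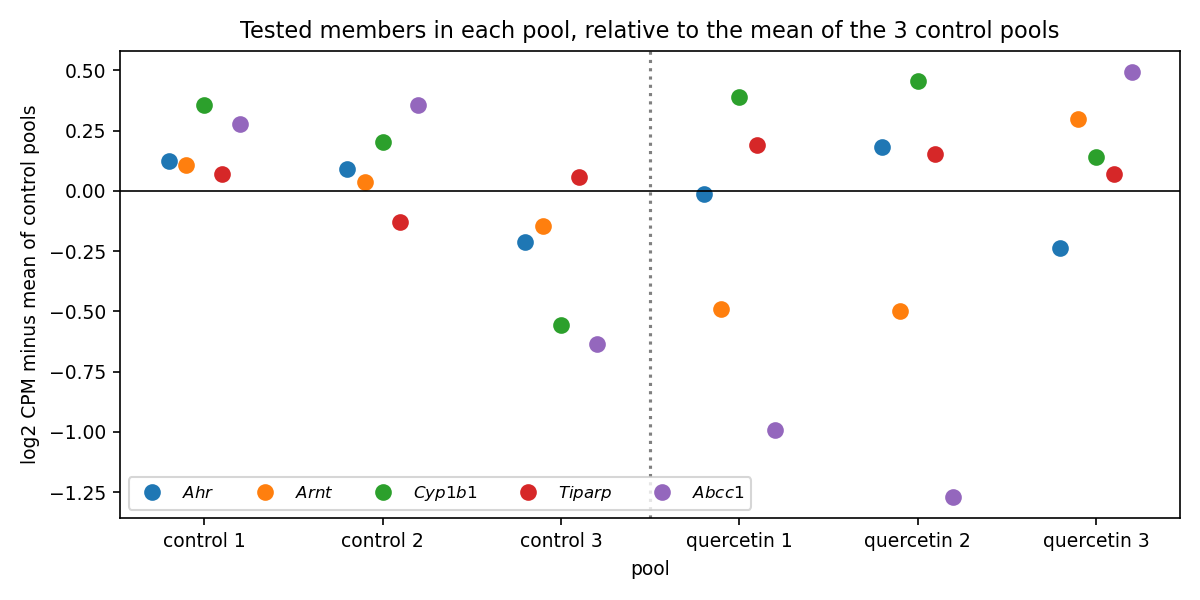
Each of the 5 tested genes in each pool (x axis) as the difference of its log2 CPM from the mean of the 3 control pools (y axis). Each point is 1 gene in 1 pool. Abcc1 (-0.99 and -1.27) and Arnt (-0.49 and -0.50) lay under the control mean in quercetin 1 and 2 and over it in quercetin 3 (0.49 and 0.30), while Tiparp lay between -0.13 and 0.19 in every pool.

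Per length of exon, Tiparp and Ahr led, and the order below them depended on the length used. The level over the 6 pools was 497 ± 36.8 RPKM for Tiparp, 7.49 ± 0.905 RPKM for Ahr, 1.08 ± 0.246 RPKM for Arnt, 0.839 ± 0.192 RPKM for Cyp1b1 and 0.447 ± 0.222 RPKM for Abcc1 (SD, n = 6). Tiparp was 66.3 times Ahr, and Ahr 6.92 times Arnt, each in 6 of 6 pools with no overlap. The ranges of Arnt and Cyp1b1 overlapped (Arnt higher in 4 of 6 pools), as did those of Cyp1b1 and Abcc1 (Cyp1b1 higher in 6 of 6 pools). With the length of the longest transcript in place of all exons, Ahr was 4.15 times Arnt. On that scale Arnt (2.01 RPKM) was 2.10 times Cyp1b1 (0.956 RPKM), with no overlap, and Abcc1 (0.993 RPKM) overlapped both. The transcript of the AHR repressor TIPARP was therefore far above that of the receptor, while those of the other repressor and of Cyp1a1 were at or near 0.

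Around these 9 genes, 99 further genes of the pathway were listed by role, and 97 were found by symbol (not Sts and Gba3). Of them 26 had 0 counts, 27 were under the filter and 44 were tested, with 26 higher and 18 lower estimates and a median log2 fold change of 0.02. Over all tested genes, 5490 estimates were higher and 6352 lower. With edgeR's quasi-likelihood test, 0 of the 44 passed an adjusted p of 0.05 (lowest 0.988), and DESeq2 called 0. At an unadjusted p of 0.05, 0 were higher and 2 lower, against 2.14% and 1.89% of all tested genes. The pools did not overlap for 1 higher and 2 lower genes of the 44, against 5.43% and 5.15% of all tested genes.

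**Figure D3:**
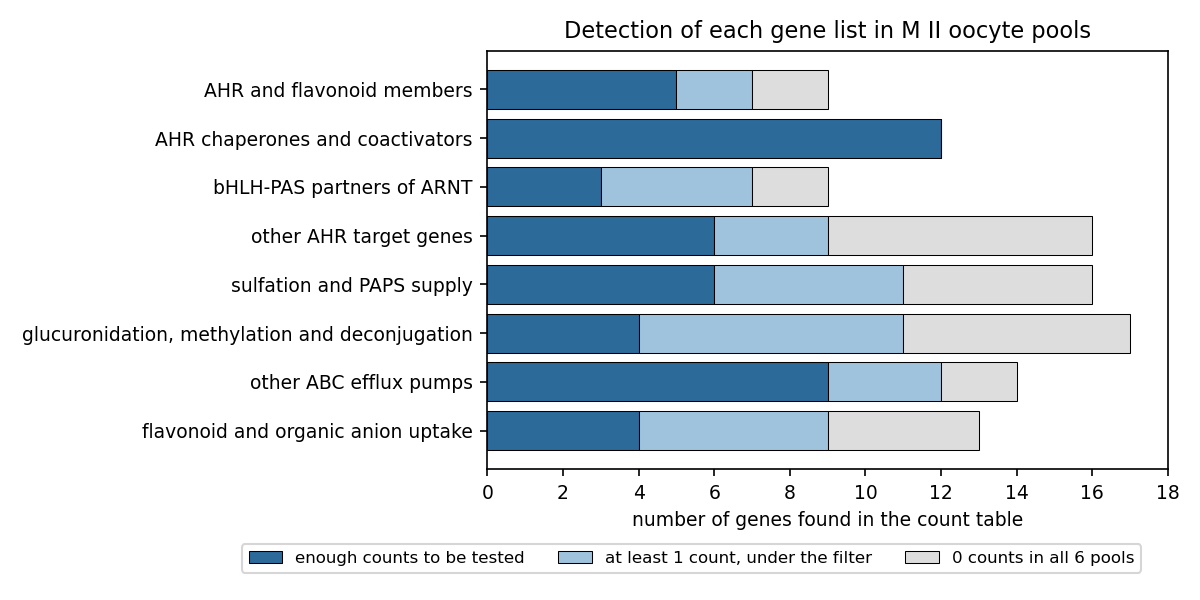
Number of genes (x axis) of each list (y axis) with enough counts to be tested, with at least 1 count but under the filter, and with 0 counts in all 6 pools. All 12 chaperones and coactivators of AHR were tested, against 6 of 16 further AHR targets and 4 of 13 uptake carriers. Over all 53465 genes, 11842 were tested.

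Of genes whose products hold or assist AHR, 12 of 12 chaperones and coactivators had enough counts to be tested. Over all genes this held for 11842 of 53465, of which 24476 had at least 1 count. Of the 12, 6 had higher and 6 lower estimates, with a median of -0.06. Hsp90aa1 and Hsp90ab1, the HSP90 isoforms of the AHR complex, were at 459 and 188 RPKM, and the co-chaperone Ptges3 (p23) at 136 RPKM. Hsp90aa1 had 16108, 18725 and 17289 counts without quercetin, against 12324, 11330 and 17506 with it, with a log2 fold change of -0.31 (SE 0.20), and again quercetin 1 and 2 were the lowest. Without quercetin 3 it was -0.52 (adjusted p = 0.269, edgeR), and without quercetin 2 it was -0.15. Of the 31-base words of Hsp90aa1 51.5% occurred in other genes' transcripts, as did 13.2% for Hsp90ab1 and 20.9% for Ptges3, so their counts may be shared with copies. Ptges3 was uneven, with 955 counts in quercetin 2 against 2143 to 3443 in the other pools. Of 9 further genes for bHLH-PAS proteins, relatives of AHR and ARNT, 3 were tested. Hif1a, the hypoxia-inducible subunit, was at 79.4 RPKM with a log2 fold change of -0.02 (SE 0.18), while Hif3a was at 0.189 RPKM and Npas3 at 1.16 RPKM, and Npas1 and Npas4 had 0 counts.

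Of 16 further AHR targets, 7 had 0 counts (Cyp1a2, Aldh3a1, Ugt1a1, Ugt1a6b, Gsta1, Ereg, Cyp2s1), 3 were under the filter and 6 were tested. Of these 6, 4 had higher and 2 lower estimates, with a median log2 fold change of 0.05 and a range of -0.82 to 0.27. The 3 genes named below are those with the highest RPKM, and both lower estimates belong to other genes of the list. Nqo1, a quinone reductase, had 191, 165 and 184 counts without quercetin, against 201, 270 and 168 with it, a log2 fold change of 0.27 (SE 0.21). Nfe2l2, which encodes the antioxidant regulator NRF2, had 322, 262 and 312 counts against 369, 333 and 344, a log2 fold change of 0.26 (SE 0.18, adjusted p = 0.988, edgeR). Its groups did not overlap by TMM, but by library size they did. Scin, an actin-severing protein, had a log2 fold change of 0.03 (SE 0.28).

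Of 16 genes for sulfation and for supply of the sulfate donor PAPS, 6 were tested, and 5 had 0 counts (Sult1b1, Sult1c2, Sult1e1, Sult3a1, Sult6b1). Papss1, a PAPS synthase, stood at 33.7 RPKM, Slc35b3, a PAPS transporter of the Golgi, at 10.9 RPKM and Sult1d1, a sulfotransferase, at 8.36 RPKM, with log2 fold changes of 0.24, 0.29 and 0.19. When 1 pool was left out, the log2 fold change of Slc35b3 ran from 0.12 to 0.54, and its lowest adjusted p was 0.813 (edgeR). Sult1d1 had 127 to 218 counts in every pool, where Sult1a1 had 0. Sult5a1, another sulfotransferase gene, had 16, 42 and 21 counts without quercetin, against 9, 12 and 12 with it, with no overlap on either scale. Its log2 fold change was -1.24 (SE 0.47, 95% interval -2.29 to -0.19), with an unadjusted p of 0.0259 and an adjusted p of 0.988 (edgeR), so it did not pass. Without control 2, the pool with 42 counts, it was -0.68 with an unadjusted p of 0.170 (edgeR).

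Of 17 genes found for glucuronidation, methylation and deconjugation, 4 were tested, and all UDP-glucuronosyltransferase genes on the list were at 0 or under the filter. The Ugt1a genes share much of their sequence, and reads may be split between them. Ugp2 and Ugdh, which make the glucuronic acid donor, had log2 fold changes of 0.35 (SE 0.23) and 0.00 (SE 0.25), and the methyltransferase-related Comtd1 one of -0.13 (SE 0.31). Without quercetin 3 that of Ugp2 was 0.52 (adjusted p = 0.329, edgeR). The opposite-strand genes A430057M04Rik and Vdac2 covered 37.3% of the exon length of Comtd1.

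Of 14 other ABC pumps, 9 were tested, with a median of 0.02. Abcb1b, one of the mouse genes for P-glycoprotein, was the highest of them at 33.4 RPKM, with 1802, 2107 and 2451 counts without quercetin, against 2036, 3118 and 2370 with it. Its log2 fold change was 0.26 (SE 0.17, 95% interval -0.13 to 0.65), and 17.4% of its words were shared, Abcb1a among the sharers. The level of Abcb1b was thus far above that of Abcc1 (0.447 RPKM) and of Abcg2, which had counts in 1 pool. Abcb4, a phospholipid exporter, had 177, 185 and 199 counts without quercetin, against 109, 168 and 112 with it, with no overlap on either scale. Its log2 fold change was -0.51 (SE 0.21, 95% interval -0.99 to -0.02), with an unadjusted p of 0.0414 and an adjusted p of 0.988 (edgeR), so it did not pass. DESeq2 gave an unadjusted p of 0.0553. Abcc4, an exporter of conjugates, was at 4.05 RPKM and Abcg1, a sterol exporter, at 2.27 RPKM, with log2 fold changes of 0.15 and -0.33.

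Of 13 carriers for uptake of flavonoids and organic anions, 4 were tested and 4 had 0 counts (Slco2a1, Slc5a1, Slc22a6, Slc22a8). Slco3a1, an organic anion transporter, had 1114, 1375 and 1133 counts without quercetin, against 990, 1090 and 1170 with it and a log2 fold change of -0.13 (SE 0.16). Slco1a4 had one of 0.40 (SE 0.25), and the glucose transporter Slc2a1 (GLUT1) one of 0.04 (SE 0.32). When 1 pool was left out, the log2 fold change of Slco1a4 ran from 0.25 to 0.63, and its lowest adjusted p was 0.552 (edgeR).

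**Figure D4:**
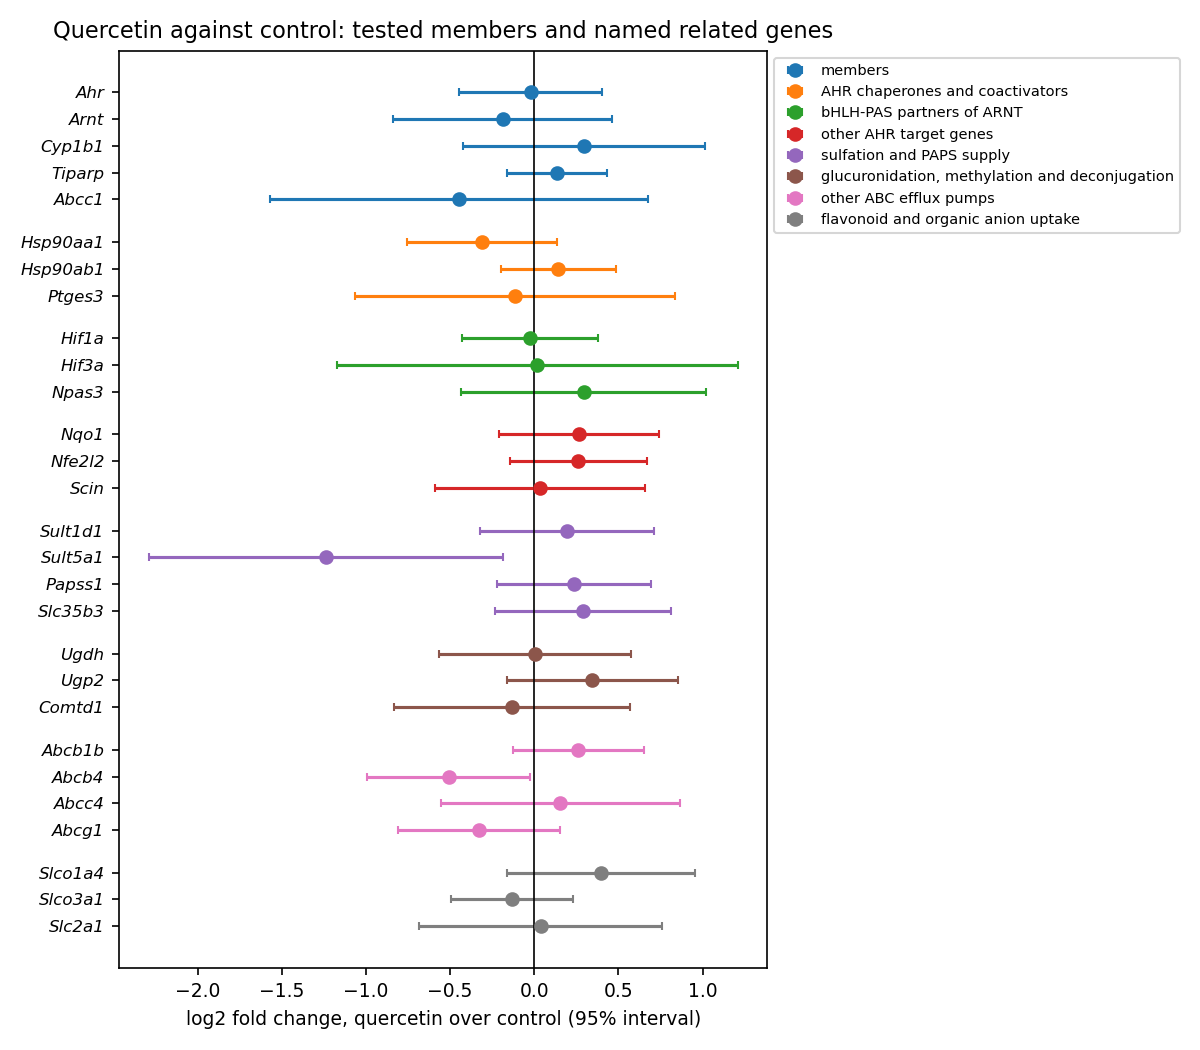
Log2 fold change of quercetin over control (x axis, point) with its 95% interval from edgeR (bar) for the 5 tested members and 23 related genes (y axis), coloured by list. The intervals of Sult5a1 (-2.29 to -0.19) and Abcb4 (-0.99 to -0.02) lie under 0 before adjustment, and all others include 0. The widest interval among the members is that of Abcc1 (-1.57 to 0.68).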

How the data were processed

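RNA was prepared with a Smart-seq HT kit from 6 pools of oocytes, 3 per group, and groups and replicate numbers came from the sample labels. Culture, pool size and priming came from the study's methods. The authors deposited raw counts of reads per Ensembl gene, without normalization or pooling. The study's methods name Hisat2 and GRCm38.91, whereas the submitters' processing notes list TopHat2 2.0.6 and CASAVA 1.8 with mm10 and GRCm38. The counting program and its settings for strand and shared reads are not given in the sources used here. For some genes with an overlapping or near-identical partner the share concerned is given, from GENCODE M21 transcripts and 31-base words. Other named genes also had overlapping partners, which covered 8.11% of the exon length of Hif1a and 4.43% of that of Slc35b3. Without strand, reads of a gene and its antisense partner cannot be told apart.

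Symbols matched 53274 of 53465 identifiers, and 24476 genes had at least 1 count. Genes were filtered with filterByExpr (minimum count 10), which left 11842, and counts were scaled by TMM. The groups were compared in R 4.3.3 by the quasi-likelihood test of edgeR 4.0.16 (glmQLFit, then glmQLFTest) without covariates, and p was adjusted by Benjamini-Hochberg across these genes. RPKM used the union of annotated exons. Single genes were also compared by two-sided exact permutation. Total counts ran from 7880467 to 9938743, and floors and Poisson intervals cover counting error only. The labels do not say whether pools came from separate cultures, so p-values measure only the spread between these pools.

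Named related genes were up to 3 tested genes per list with the highest RPKM and any with an unadjusted p under 0.05. The 9 genes and the lists were chosen with earlier results of these data known. Alternatives were DESeq2 1.42.0, other scalings, no filter, a replicate block, longest-transcript length and leaving out each pool. Promoter windows came from the RefSeq table of GRCm38.p6. Python 3.11.15 with scipy 1.17.1, numpy 2.4.6 and pandas 2.3.3 was used, and plots were drawn with matplotlib 3.10.9.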

Additional observations from a re-analysis of the deposited data

How the results depend on the processing

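Of the 5 tested genes, 0 passed an adjusted p of 0.05 under any of the 11 alternative fits, and the same held for the 44 related genes. Over all tested genes the count was 0 with edgeR, 17 with DESeq2, 3 without the filter and 0 to 7 when 1 pool was left out, of which 7 without quercetin 1 and 6 without quercetin 3. An unadjusted p under 0.05 gave 477 genes, and that with a fold change over 2 gave 103. When 1 pool was left out, the log2 fold change ran from -0.13 to 0.081 for Ahr, -0.51 to -0.05 for Arnt, 0.07 to 0.49 for Cyp1b1, 0.08 to 0.17 for Tiparp and -1.24 to -0.13 for Abcc1. Those without quercetin 3 gave the lowest Arnt and Abcc1 values. By library size alone the 5 values were -0.12, -0.25, 0.20, 0.05 and -0.50, and the median of all genes moved to -0.11. Longest-transcript length moved Arnt to 2.01 RPKM and Abcc1 to 0.993 RPKM. Library size alone turned Hif3a to -0.049, Scin to -0.047, Ugdh to -0.082 and Slc2a1 to -0.046. Leaving out 1 pool turned Ptges3 (-0.52 to 0.29), Hif1a (-0.18 to 0.13), Hif3a (-0.54 to 0.39), Scin (-0.15 to 0.23), Ugdh (-0.14 to 0.12), Comtd1 (-0.35 to 0.0082), Abcc4 (-0.044 to 0.48), Slco3a1 (-0.20 to 0.011) and Slc2a1 (-0.19 to 0.18). In all, 20 of 253 alternative values of the named related genes changed sign. Of 77 list medians 15 changed sign and 2 moved by over 1 SD. The cause was not tested.

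With a replicate block the count over all genes was 0, and the log2 fold changes were -0.02 for Ahr, -0.23 for Arnt, 0.33 for Cyp1b1, 0.14 for Tiparp, -0.61 for Abcc1 and -0.10 for Hif3a. Pools with the same number correlated at 0.296, 0.101 and -0.0303 (mean of different numbers -0.0612), and 3 of 6 pools correlated best with their own number, so the numbers were not treated as pairs. Ahrr and Abcg2 had 2 and 9 counts in all, too few to be tested.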

Other observations

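Over the 6 pools, the tested genes whose log2 CPM followed Tiparp most closely were Usp28, a ubiquitin protease (Pearson r = 0.991), Gm38316 (r = 0.989) and Gm2117 (r = 0.986). All genes were measured in the same 6 libraries with the same scaling, and 227 tested genes had an r over 0.9, so these values are a description. Usp28 stood at 346 to 461 CPM over the pools, with a log2 fold change of 0.19 for quercetin over control.

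Of the 10 oocyte markers, 5 had higher and 5 lower estimates with quercetin, and 0 passed an adjusted p of 0.05 (edgeR). Ooep, a gene of the subcortical maternal complex, was at 716 ± 241 CPM in control and 379.5 ± 222 CPM in quercetin pools (SD, n = 3), a log2 fold change of -0.92 with an unadjusted p of 0.0412 and an adjusted p of 0.988 (edgeR). It was 1 of 10 with an unadjusted p under 0.05 (edgeR), against 4.03% of all tested genes. The Ooep pools of the 2 groups overlapped, and its exact permutation p was 0.2. Ooep, Zp2 and Cyp19a1 were named after their values were seen. The zona pellucida gene Zp2 ranged from 131 CPM in quercetin 1 to 1554 CPM in control 2. Cyp19a1, aromatase, the most abundant of the cumulus and granulosa markers, was at 64.1 ± 5.34 CPM in control and 74.4 ± 1.44 CPM in quercetin pools (SD, n = 3), and its part in the values of the 9 genes was not tested.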
